A study of Arabidopsis thaliana with 35 samples.

Results

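Transcripts of 5 xyloglucan endotransglucosylase/hydrolase genes of Arabidopsis thaliana, XTH18 (AT4G30280), XTH19 (AT4G30290), XTH20 (AT5G48070), XTH21 (AT2G18800) and XTH26 (AT4G28850), were taken by name from the probe annotation and followed over roots, hypocotyls and cotyledons of seedlings at 28 °C and at 20 °C. They are 5 of the 10 genes of this family, out of 33 numbered in Arabidopsis, that have a named probe set among the 13355 genes tested. XTH18 and XTH19 are neighbours on chromosome 4, next to XTH24. Each of the 5 transcripts was read by 1 probe set, and because the sequences of close relatives are alike, a probe set may also bind a relative's transcript, which was not tested.

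The enzymes of this family act in the cell wall. They cut xyloglucan, the hemicellulose that lies between cellulose microfibrils, and join the cut end to either another xyloglucan chain or water, which lets a wall loosen, extend and be rebuilt. XTH18, XTH19 and XTH20 belong, with XTH17, to a clade of near relatives known from roots, XTH21 is known to be needed for normal root growth, and XTH26 is known from the root epidermis and its hairs. Warm temperature is known to lengthen hypocotyls of Arabidopsis, a growth response that rests on cell expansion.

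All seedlings were of the natural accession RRS-7 and grew for 5 days at 20 °C under white LED light in a long day of 16 h light. The warm groups were moved to 28 °C on day 5 at ZT 7 (hours after lights on) and the 20 °C groups stayed where they were. Roots, hypocotyls and cotyledons were dissected after 3 h, at ZT 10, or after 24 h, at ZT 7 of day 6, so the later harvest differs from the earlier one in age and in time of day at both temperatures. The 12 groups held 3 arrays each, 35 in all, except that root at 28 °C for 3 h held 2. The replicates are called biological in the labels, each pooled from material of several harvest sessions, and all groups share the RRS-7 genotype.

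Levels are log2 values of the deposited RMA table (background-corrected, normalised and summarised probe intensities), in which array medians lay between 5.65 and 5.93. A level can be compared between groups for the same gene, but not between genes, whose probes differ. Arrays of 1 group had correlations of 0.9924 to 0.9971. A change is the difference of log2 group means, 28 °C minus 20 °C unless stated, with its standard error (SE) from 1 limma fit to all arrays, and "called" means an adjusted p under 0.05 over all 13355 genes. The number of arrays limits precision, with a median SE of 0.105, or 0.117 for root at 3 h. The measured markers were highest in the organ they stand for, which does not show how cleanly the organs were separated. RCA lay at or above the 73.5th percentile of the arrays even in root, and the root marker PYK10 at or above the 98.6th even in cotyledon. Rubisco activase (RCA) averaged 7.77 to 8.24 in root groups, 13.22 to 13.46 in hypocotyl groups and 13.68 to 13.78 in cotyledon groups, and the Calvin cycle enzyme SBPASE averaged 4.52 to 5.15 in root, 11.30 to 11.38 in hypocotyl and 12.64 to 12.71 in cotyledon groups. These were the 2 measured of 7 cotyledon markers. PYK10, a beta-glucosidase of roots and hypocotyls and the 1 measured of 7 root markers, averaged 13.21 to 13.63 in root groups, 12.61 to 12.77 in hypocotyl groups and 11.50 to 11.94 in cotyledon groups. The root hair expansins EXPA7 and EXPA18, 2 measured of 6 root hair markers, averaged 7.83 to 9.03 in root groups and 4.56 to 5.20 in the other organs. No markers of the hypocotyl were set, and in bulk RNA a change in the number of cells of a type and a change in RNA per cell cannot be told apart.

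All 5 transcripts were highest in the root. At 20 °C, 5 of the 5 were called higher in root than in cotyledon, where 76.5% of all genes were called in one direction or the other, and 5 of 5 were called higher in root than in hypocotyl, where 60.4% of all genes were called. Between hypocotyl and cotyledon at 20 °C, 3 of the 5 were called, XTH18, XTH19 and XTH20, each higher in hypocotyl, against 66.3% of all genes. These shares of all genes join both directions. Of the 13355 genes tested, 5218 were called higher in root than in cotyledon and 4800 higher in root than in hypocotyl. Between hypocotyl and cotyledon, 4034 were called higher in hypocotyl. Most genes thus differed between organs, but fewer did so in the direction of these 5. Whether the counts set the 5 apart was not tested, and the 5 were chosen with earlier results of these data known. The scale of the arrays enters here as well: centring on 8 reference genes moved the median of all genes by −0.347 in root against cotyledon and by −0.345 in root against hypocotyl, and centring on array medians moved it by −0.157 in root against cotyledon and by −0.21 in hypocotyl against cotyledon, and none of the called directions turned under either.

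XTH19 had the steepest order of organs. Over both temperatures and harvests its level ran from 9.86 to 10.33 in 11 root arrays (median 10.04), from 6.33 to 7.62 in 12 hypocotyl arrays (median 6.90) and from 3.78 to 5.08 in 12 cotyledon arrays (median 4.43). The 3 organs did not overlap. At 20 °C it was 49.5-fold higher in root than in cotyledon (log2 difference 5.63 ± 0.13, limma adjusted p = 5.13e-28), 9.42-fold higher in root than in hypocotyl (3.24 ± 0.13, adjusted p = 5.71e-21) and 5.25-fold higher in hypocotyl than in cotyledon (2.39 ± 0.13, adjusted p = 7.21e-17). Its 20 °C cotyledon values lay between the 19.6th and the 42.1st percentile of their arrays, and where they do not exceed background, which was not tested, the differences from cotyledon are lower bounds.

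XTH20 kept the same order. Its level ran from 8.10 to 9.67 in root (median 9.20), from 5.46 to 7.19 in hypocotyl (median 6.29) and from 4.18 to 4.95 in cotyledon (median 4.55), again with no overlap of organs. The 20 °C difference was 4.77 ± 0.10 for root against cotyledon (27.3-fold, adjusted p = 1.04e-29), 2.58 ± 0.10 for root against hypocotyl (adjusted p = 6.47e-22) and 2.19 ± 0.10 for hypocotyl against cotyledon (adjusted p = 3.12e-19). Its 20 °C cotyledon values lay between the 30.8th and the 40.4th percentile of their arrays. Where they do not exceed background, which was not tested, the differences from cotyledon are lower bounds.

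XTH18 was also highest in root, but its hypocotyl and cotyledon levels lay close together. Root arrays ran from 8.84 to 9.18 (median 9.03), hypocotyl arrays from 6.00 to 7.20 (median 6.81) and cotyledon arrays from 5.18 to 7.04 (median 6.50). Root stood clear of both shoot organs, whose ranges overlapped. At 20 °C root exceeded cotyledon by 3.03 ± 0.10 (adjusted p = 4.91e-24) and hypocotyl by 2.50 ± 0.10 (adjusted p = 1.9e-21), and hypocotyl exceeded cotyledon by 0.54 ± 0.10 (adjusted p = 1.44e-05).

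XTH21 and XTH26 stood above the low end of the array in roots alone. XTH21 ran from 4.33 to 5.92 in root (median 5.16), from 3.27 to 3.81 in hypocotyl (median 3.57) and from 3.18 to 3.87 in cotyledon (median 3.55). XTH26 ran from 4.55 to 6.18 in root (median 5.58), from 3.29 to 3.69 in hypocotyl (median 3.51) and from 3.33 to 3.89 in cotyledon (median 3.52). Root values lay between the 31.0th and the 51.0th percentile of their arrays for XTH21 and between the 33.9th and the 54.7th for XTH26, so neither was bright in root. For both genes every root array lay above every shoot array, and the shoot values lay between the 4.6th and the 21.1st percentile of their arrays, so changes there are hard to measure. Whether these shoot values exceed background was not tested, and where they do not, the differences below are lower bounds. Root exceeded cotyledon by 1.32 ± 0.13 for XTH21 (adjusted p = 5.11e-11) and by 2.24 ± 0.09 for XTH26 (adjusted p = 5.36e-21). Hypocotyl and cotyledon did not differ beyond the spread for XTH21 (−0.05 ± 0.13, adjusted p = 0.719) or XTH26 (−0.02 ± 0.09, adjusted p = 0.861), though centring on array medians gave XTH26 a difference of −0.23 that was called.

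**Figure D1:**
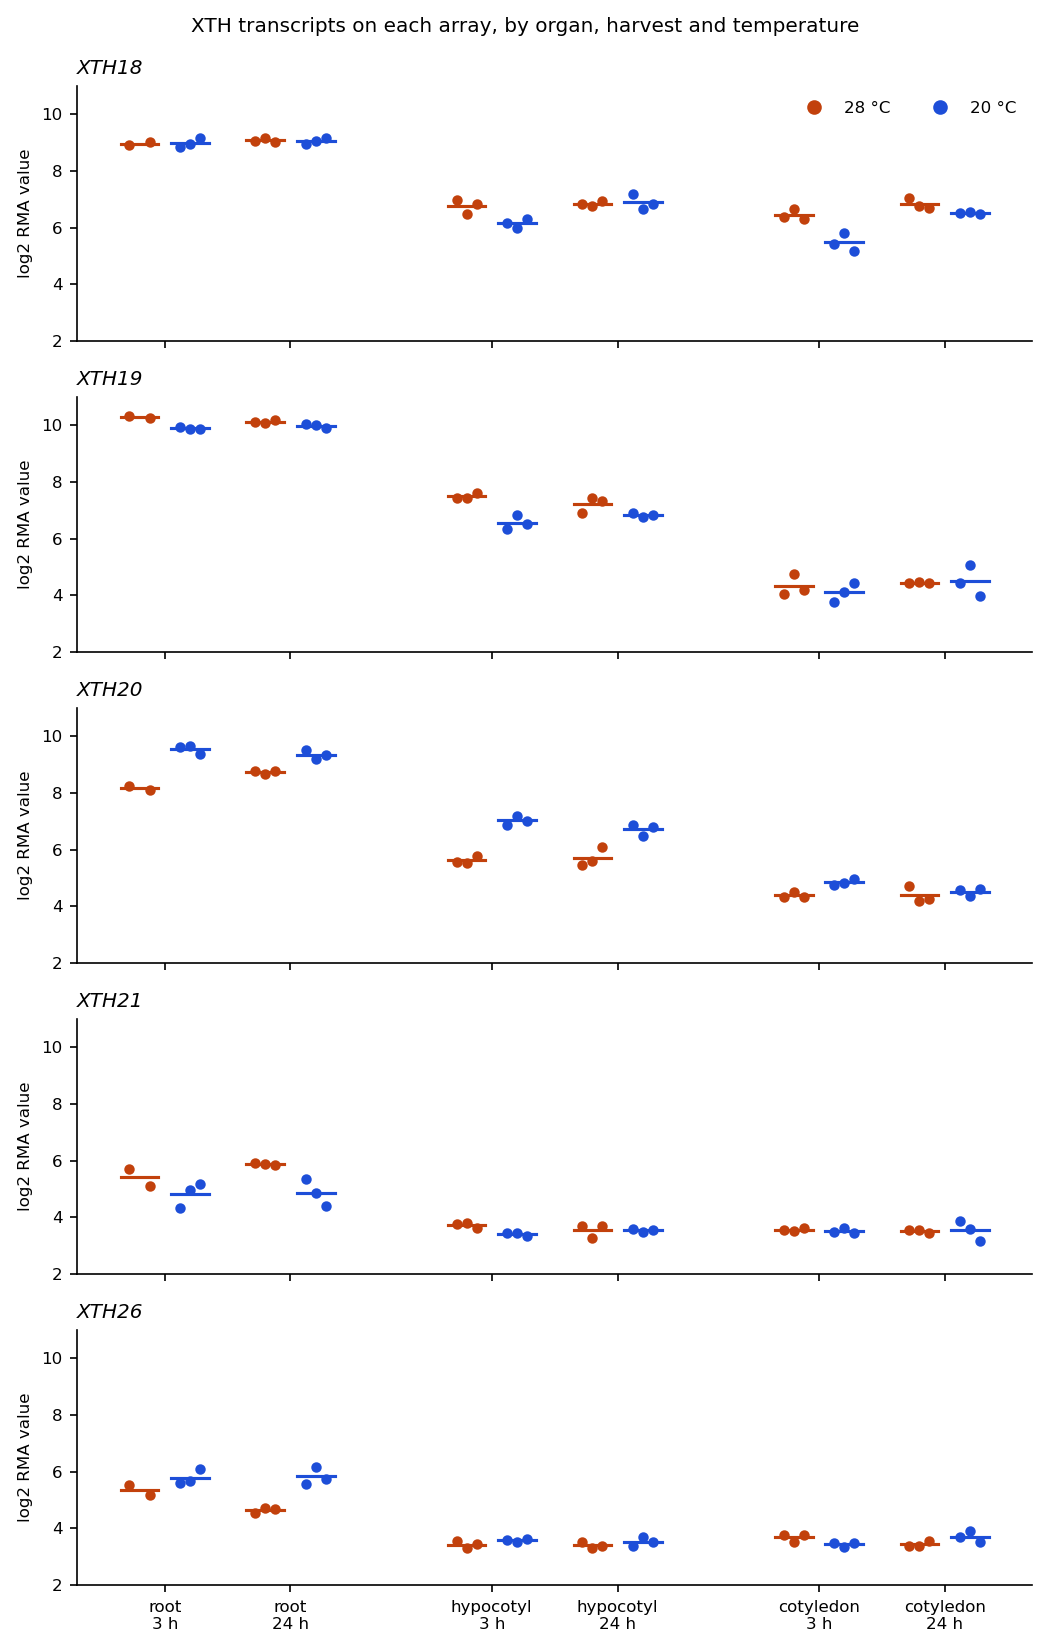
Level of each XTH transcript on every array as the log2 RMA value (vertical axis) by organ and harvest, with 28 °C left of 20 °C, where points are arrays and bars are group means of 3 arrays (2 for root at 28 °C, 3 h). XTH18, XTH19 and XTH20 step down from root to the shoot organs, XTH20 sits lower at 28 °C in root and hypocotyl, and XTH21 and XTH26 part in opposite directions in root at 24 h.

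At 28 °C the relatives did not move together. XTH20 fell in 5 of the 6 combinations of organ and harvest, XTH18 rose in the hypocotyl and the cotyledon at 3 h, XTH19 rose in the hypocotyl at 3 h, and in the root at 24 h XTH21 rose and XTH26 fell. In the hypocotyl at 3 h, 2 of the 5 were called higher and 1 lower, against 6.99% of all genes called higher and 7.65% called lower. At 24 h in the hypocotyl 0 were called higher and 1 lower, against 5.08% and 4.58% of all genes. In the cotyledon the counts were 1 higher and 1 lower at 3 h, against 10.3% and 12.1% of all genes. At 24 h in the cotyledon limma called 0 of the 5, of which 2 had an unadjusted p under 0.05, against 15% of all genes called higher and 13.4% called lower. In the root 0 were called higher and 1 lower at 3 h, against 5.38% and 5.35% of all genes, and 1 higher and 2 lower at 24 h, against 8.39% and 9.31%.

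XTH20 showed the largest falls of the 5 in both harvests of the hypocotyl and in the root at 3 h. In the hypocotyl at 3 h its level was 5.55, 5.53 and 5.79 at 28 °C, against 6.88, 7.19 and 7.02 at 20 °C. All 28 °C arrays were more than 1 log2 unit below the lowest 20 °C array, and the transcript was 2.65-fold lower (−1.41 ± 0.14, adjusted p = 2.24e-08). At 24 h the hypocotyl had 5.46, 5.61 and 6.08 at 28 °C, against 6.86, 6.49 and 6.81 at 20 °C. The groups still did not overlap, and XTH20 was 2-fold lower (−1.0 ± 0.14, adjusted p = 8.4e-06).

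XTH20 also fell in the root. At 3 h both 28 °C arrays, at 8.23 and 8.10, lay below the 20 °C arrays at 9.62, 9.67 and 9.39, a 2.62-fold lower level (−1.39 ± 0.15, adjusted p = 6.2e-08). At 24 h the root values were 8.77, 8.66 and 8.79 at 28 °C, against 9.51, 9.20 and 9.35 at 20 °C. The 28 °C arrays were again the lower ones without overlap, by 0.61 ± 0.14 (1.52-fold, adjusted p = 0.00144).

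In the cotyledon, where XTH20 is dim, the fall at 3 h was small. Its level was 4.33, 4.52 and 4.32 at 28 °C, against 4.77, 4.83 and 4.95 at 20 °C, a change of −0.46 ± 0.14 (adjusted p = 0.0126). The groups did not overlap, but without replicate 3 at 28 °C the change was −0.42, and without replicate 3 at 20 °C −0.41, and in both cases XTH20 was no longer called. At 24 h XTH20 had 4.73, 4.18 and 4.26 at 28 °C and 4.58, 4.35 and 4.62 at 20 °C, overlapping groups with a change of −0.12 ± 0.14 (adjusted p = 0.553).

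XTH19, the closest in organ pattern to XTH20 among the 5 (r = 0.934 over the 12 group means), went the other way in the hypocotyl. At 3 h its level was 7.42, 7.42 and 7.62 at 28 °C, against 6.33, 6.84 and 6.52 at 20 °C. Every warm array was above every 20 °C array, and XTH19 was 1.9-fold higher (0.92 ± 0.19, adjusted p = 0.00061). At 24 h the hypocotyl had 6.89, 7.44 and 7.33 at 28 °C, against 6.91, 6.77 and 6.83 at 20 °C. One warm array fell within the 20 °C range, and the change of 0.38 ± 0.19 was not called (adjusted p = 0.219).

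Root levels of XTH19 were 10.33 and 10.26 at 28 °C, against 9.93, 9.86 and 9.88 at 20 °C at 3 h, and 10.11, 10.08 and 10.19 at 28 °C, against 10.04, 10.02 and 9.89 at 20 °C at 24 h. The warm arrays were above the others at both harvests, by little. The changes, 0.41 ± 0.21 (adjusted p = 0.254) and 0.15 ± 0.19 (adjusted p = 0.703), were not called, although a fit to the 3 h root arrays alone called the first of them. In the cotyledon XTH19 stayed near the lower part of the scale, and its changes were 0.22 ± 0.19 at 3 h (adjusted p = 0.465) and −0.05 ± 0.19 at 24 h (adjusted p = 0.887), with overlapping groups at both harvests.

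XTH18, the chromosomal neighbour of XTH19, rose in both shoot organs at 3 h. In the hypocotyl it had 6.97, 6.49 and 6.84 at 28 °C, against 6.18, 6.00 and 6.31 at 20 °C. The groups did not overlap, and the level was 1.52-fold higher (0.60 ± 0.14, adjusted p = 0.00242). In the cotyledon it had 6.38, 6.65 and 6.32 at 28 °C, against 5.44, 5.81 and 5.18 at 20 °C. Again all warm arrays were higher, here by 0.97 ± 0.14 (1.96-fold, adjusted p = 1.68e-06). PYK10 also rose in the cotyledon at 3 h, by 0.29 ± 0.09 (adjusted p = 0.0251), and the part of such a shift in the XTH18 result was not tested.

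At 24 h XTH18 changed little at 28 °C. The hypocotyl arrays read 6.85, 6.78 and 6.93 at 28 °C and 7.20, 6.67 and 6.84 at 20 °C, which overlap (−0.05 ± 0.14, adjusted p = 0.888). The cotyledon arrays read 7.04, 6.76 and 6.70 at 28 °C and 6.53, 6.54 and 6.47 at 20 °C. The warm cotyledon arrays were all higher, but the change of 0.32 ± 0.14 was not called (adjusted p = 0.0794), and it was called only when arrays were centred on reference genes (0.39, adjusted p = 0.0252). In the root XTH18 had 8.91 and 9.03 at 28 °C and 8.84, 8.97 and 9.16 at 20 °C at 3 h, and the changes were −0.02 ± 0.15 at 3 h and 0.01 ± 0.14 at 24 h (adjusted p = 0.968 and 0.972).

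XTH18 also differed between the harvests at 20 °C itself. In the cotyledon it had 6.53, 6.54 and 6.47 in the 24 h harvest, against 5.44, 5.81 and 5.18 in the 3 h harvest, a difference of 1.04 ± 0.14 (adjusted p = 5.83e-07). In the hypocotyl it had 7.20, 6.67 and 6.84 in the 24 h harvest, against 6.18, 6.00 and 6.31 in the 3 h harvest, a difference of 0.74 ± 0.14 (adjusted p = 0.00121). The harvests did not overlap in either organ, and XTH18 was the 1 of the 5 called there, against 17.6% of all genes in the cotyledon and 1.94% in the hypocotyl. In the root limma called 0 of the 5 between harvests at 20 °C, with 0 at an unadjusted p under 0.05, against 0.419% of all genes, and XTH18 differed by 0.08 ± 0.14. XTH19 differed by 0.38 ± 0.19 between the cotyledon harvests (adjusted p = 0.174), and by 0.09 to 0.64 with 1 array left out. The value was 0.09 without replicate 2 and 0.64, which was called, without replicate 3 of the 24 h harvest, and 0.22 without replicate 1 of the 3 h harvest. The root marker PYK10 was also higher in the 24 h cotyledons, by 0.28 ± 0.09 (adjusted p = 0.0365), and its part in the XTH18 difference was not tested.

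**Figure D2:**
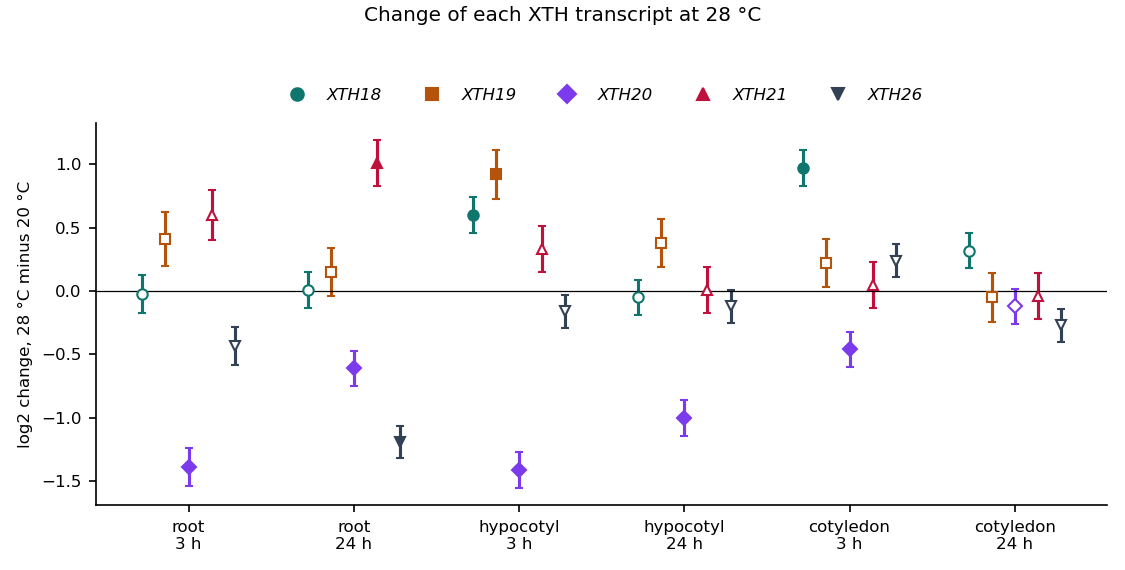
Log2 change at 28 °C minus 20 °C (vertical axis) of each XTH transcript by organ and harvest, with bars of 1 SE from the limma fit and filled symbols for an adjusted p under 0.05. XTH20 lies below 0 throughout and is filled in 5 of 6 positions, while XTH18 and XTH19 lie above 0 in the hypocotyl at 3 h, and XTH21 and XTH26 stand at 1.01 and −1.19 in the root at 24 h.

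XTH21 and XTH26 changed in the root, in opposite directions. After 24 h XTH21 had 5.92, 5.89 and 5.85 at 28 °C, against 5.36, 4.86 and 4.40 at 20 °C. The warm arrays were close together and all higher, while the 20 °C arrays were spread over almost a log2 unit, and the level was 2.02-fold higher (1.01 ± 0.18, adjusted p = 0.000107, and 0.78 to 1.26 with any 1 array left out). The SE comes from a spread shared by all groups. The SD of XTH21 was 0.48 in these 20 °C roots and 0.05 to 0.35 in the shoot groups, so the SE may be too small here. XTH26 had 4.55, 4.72 and 4.67 at 28 °C, against 5.58, 6.18 and 5.73 at 20 °C. All warm arrays were lower, and XTH26 was 2.27-fold lower (−1.19 ± 0.13, adjusted p = 3e-08).

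After 3 h in the root neither gene was called in the main fit, where both lay close to the threshold. Most of the alternative fits called more of the 5 there than the main fit, as listed in the closing section. XTH21 had 5.71 and 5.12 at 28 °C, against 4.33, 4.95 and 5.16 at 20 °C, with the lower warm array inside the 20 °C range (0.60 ± 0.20, adjusted p = 0.055). With 1 array left out the XTH21 value ran from 0.31, without replicate 1 at 28 °C, to 0.89, without replicate 2 at 28 °C, so it rests on single arrays. Dropping replicate 1 of the 20 °C roots gave 0.36 and dropping their replicate 3 gave 0.77, and XTH21 was called at 0.77 and 0.89. XTH26 had 5.52 and 5.18 at 28 °C, against 5.61, 5.66 and 6.08 at 20 °C, with the warm arrays lower by a narrow margin (−0.43 ± 0.15, adjusted p = 0.0519). With 1 array left out the XTH26 value ran from −0.60, without replicate 1 at 28 °C, to −0.26, without replicate 2 at 28 °C, and was −0.28 without replicate 3 at 20 °C. It was called at −0.60 and, without replicate 1 at 20 °C, at −0.52.

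Cell type markers also moved in the warm root. At 24 h SBPASE fell by 0.53 ± 0.10 (adjusted p = 0.000133), PYK10 rose by 0.41 ± 0.09 (adjusted p = 0.00177) and EXPA7 rose by 0.46 ± 0.15 (adjusted p = 0.0223), while EXPA18 changed by 0.32 ± 0.17 (adjusted p = 0.235) and RCA, the other cotyledon marker, by 0.24 ± 0.15 (adjusted p = 0.321), opposite in sign to SBPASE. At 3 h EXPA7 was higher by 0.59 ± 0.16 (adjusted p = 0.0149), while EXPA18 changed by 0.03 ± 0.19 (adjusted p = 0.971) and RCA by 0.47 ± 0.16 (adjusted p = 0.0617). Of the 2 root hair markers, EXPA7 was thus called higher at both harvests and EXPA18 at neither, against 5.38% of all genes called higher at 3 h and 8.39% at 24 h. What part shifts in these cell types have in the values of XTH21 and XTH26 was not tested.

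Outside the root both genes stayed dim. XTH21 in the hypocotyl at 3 h had 3.78, 3.81 and 3.62 at 28 °C, against 3.43, 3.45 and 3.33 at 20 °C. The warm arrays were all higher, and the change of 0.33 ± 0.18 (adjusted p = 0.243) was called only in a fit to those 6 arrays alone (adjusted p = 0.0236). The other XTH21 changes in shoot organs lay between −0.04 and 0.05, and those of XTH26 were −0.16 and −0.12 in the hypocotyl and 0.24 and −0.27 in the cotyledon, at 3 h and 24 h, and none of them was called.

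Opposite changes can be read within an array, where a shift common to both transcripts cancels. The difference XTH19 minus XTH20 was taken on each array and set against its mean over the 20 °C arrays of the same organ and harvest. In the hypocotyl at 3 h it was shifted by 2.34, 2.36 and 2.30 at 28 °C, against −0.08, 0.12 and −0.04 at 20 °C. That is the widest separation in the plot of shifts, and the shift was 1.38 ± 0.30 (SD, n = 3) in the hypocotyl at 24 h. In the root it was 1.78 and 1.83 at 28 °C, against −0.02, −0.14 and 0.16 at 20 °C at 3 h, and 0.75 ± 0.04 (SD, n = 3) at 24 h. In the cotyledon, where both probe sets are dim, it was 0.45, 0.98 and 0.62 at 28 °C, against −0.25, 0.02 and 0.24 at 20 °C at 3 h. The cotyledon at 24 h showed no separation, with 0.08 ± 0.30 (SD, n = 3) at 28 °C. These shifts say that the pair changed unequally and not which of the pair changed, and they were not tested. They restate the changes given above on the same arrays and are no separate support. Other pairs were taken as well. In the hypocotyl at 3 h XTH18 minus XTH20 was shifted by 2.01 ± 0.24 and XTH18 minus XTH19, the chromosomal neighbours, by −0.32 ± 0.25 (SD, n = 3 each). The latter was shifted by 0.75 ± 0.23 (SD, n = 3) in the cotyledon at 3 h.

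The pair XTH21 and XTH26 separated most in the root. The difference XTH21 minus XTH26 was shifted by 2.34, 2.12 and 2.13 in 24 h roots at 28 °C, against 0.73, −0.36 and −0.37 at 20 °C. At 3 h the root shifts were 1.15 and 0.91 at 28 °C, against −0.30, 0.26 and 0.05 at 20 °C. In the hypocotyl at 3 h the shift was 0.49 ± 0.18, and in the other shoot groups its mean lay between −0.19 and 0.23, where both probe sets are dim.

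**Figure D3:**
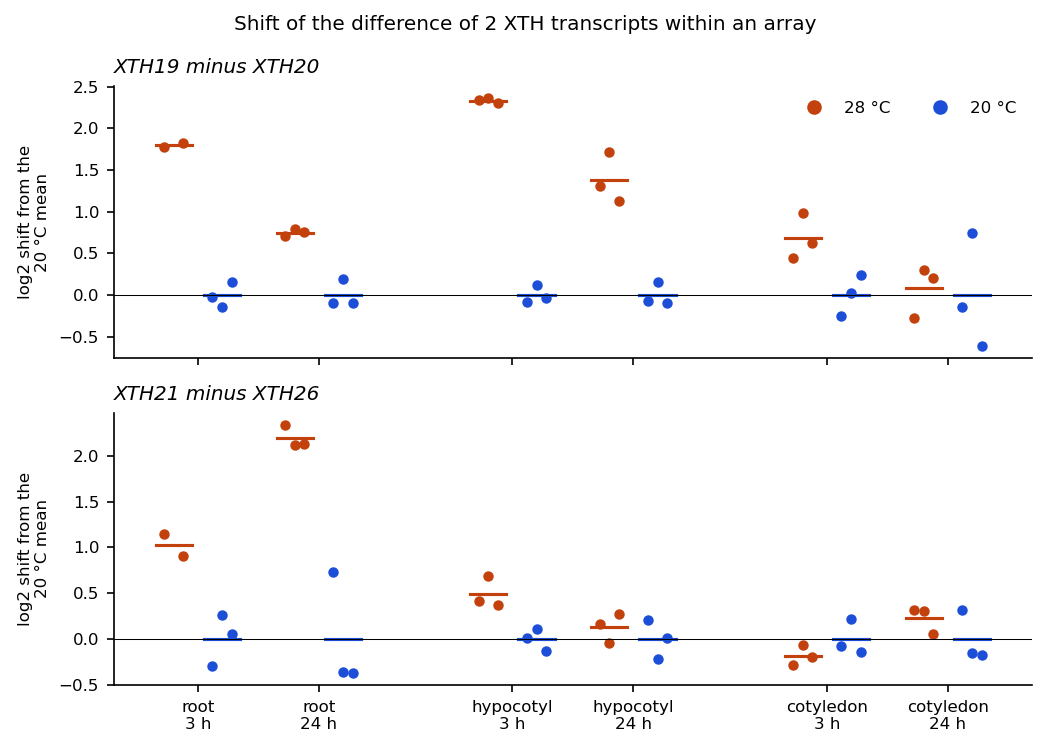
Shift of the within-array log2 difference of 2 XTH transcripts from its mean over the 20 °C arrays of the same organ and harvest (vertical axis), XTH19 minus XTH20 above and XTH21 minus XTH26 below, where points are arrays and bars are group means. XTH19 minus XTH20 reaches 2.30 to 2.36 in warm hypocotyls at 3 h, and XTH21 minus XTH26 reaches 2.12 to 2.34 in warm roots at 24 h.

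Whether the organs responded unequally was tested as the difference of their changes. For root minus cotyledon at 3 h, 3 of the 5 were called, XTH18, XTH20 and XTH26, against 11.5% of all genes. XTH18 changed by −0.02 in root and by 0.97 in cotyledon, a difference of −0.99 ± 0.21 (adjusted p = 0.0011), and XTH20 by −1.39 in root and by −0.46 in cotyledon, a difference of −0.93 ± 0.20 (adjusted p = 0.00205). The rise of XTH18 was thus larger in cotyledon, and the fall of XTH20 larger in root. XTH20 is dim in the cotyledon, between the 29.9th and the 40.4th percentile over its 4 groups, where a fall may show less. The part of this in its difference was not tested. XTH26 changed by −0.43 in root and by 0.24 in cotyledon, neither of them called, a difference of −0.67 ± 0.19 (adjusted p = 0.0193). Its cotyledon values at 3 h lay between the 7.5th and the 18.4th percentile of their arrays, so the cotyledon part is hard to measure. The XTH26 difference was not called without replicate 2 of the 20 °C cotyledons (−0.62) or replicate 3 of the 20 °C roots (−0.53). Without replicate 2 of the 28 °C roots, which leaves 1 array, it was −0.51.

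For hypocotyl minus cotyledon, XTH20 was the 1 of the 5 called at 3 h, against 3.35% of all genes, and again at 24 h, against 12.1%. Its fall was larger in hypocotyl by 0.95 ± 0.19 at 3 h (difference −0.95, adjusted p = 0.00346) and by 0.88 ± 0.19 at 24 h (difference −0.88, adjusted p = 0.00185). Both differences are set against the cotyledon, where XTH20 is dim and a fall may show less, which was not tested. XTH19 differed by 0.70 ± 0.26 between these organs at 3 h and was not called (adjusted p = 0.155), except without replicate 2 of the 28 °C cotyledons (0.92). For root minus hypocotyl at 3 h limma called 0 of the 5, with 1 at an unadjusted p under 0.05, against 5.3% of all genes. That 1 was XTH18, with a difference of −0.62 ± 0.21 (adjusted p = 0.0743), which was called without replicate 2 of the 28 °C hypocotyls (−0.76). XTH20 differed by 0.02 ± 0.20 between root and hypocotyl at 3 h (adjusted p = 0.982).

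At 24 h the changes of XTH21 and XTH26 in root differed from those in both shoot organs. XTH21 changed by 1.01 in root, 0.01 in hypocotyl and −0.04 in cotyledon, and XTH26 by −1.19, −0.12 and −0.27. In the shoot organs both probe sets lay near the low end of the arrays, where a fall such as that of XTH26 in root could hardly show. The part of these low levels in the differences was not tested. For root minus cotyledon 2 of the 5 were called, against 20.1% of all genes, with 1.05 ± 0.26 for XTH21 (adjusted p = 0.00321) and −0.92 ± 0.18 for XTH26 (adjusted p = 0.000348). For root minus hypocotyl the same pair was called, against 7.48% of all genes, with 1.0 ± 0.26 for XTH21 (adjusted p = 0.0117) and −1.07 ± 0.18 for XTH26 (adjusted p = 0.000197). The XTH21 difference from hypocotyl was not called without replicate 2 of the 28 °C hypocotyls (0.86) or replicate 3 of the 20 °C roots (0.77). XTH20 differed by −0.48 ± 0.19 between root and cotyledon at 24 h (adjusted p = 0.0766), with −0.31 without replicate 1 of the 28 °C cotyledons and −0.59, which was called, without their replicate 2.

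The harvests were compared in the same way, as the 24 h change minus the 3 h change. In the root 2 of the 5 were called, against 3.35% of all genes. XTH20 changed by −0.61 at 24 h and by −1.39 at 3 h, so its fall was smaller at 24 h (difference 0.78 ± 0.20, adjusted p = 0.0256), and XTH26 by −1.19 at 24 h and by −0.43 at 3 h, so its fall was larger at 24 h (−0.75 ± 0.19, adjusted p = 0.0238). Both calls were fragile. With 1 array left out at a time, the XTH20 difference stayed between 0.71 and 0.87 but was not called in 7 of 11 cases, and the XTH26 difference ranged from −0.92 to −0.58 and was not called in 5 of 11. The XTH26 differences nearest to 0 were −0.58 without replicate 2 of the 24 h 20 °C roots and −0.59 without replicate 1 of the 3 h 28 °C roots.

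In the cotyledon XTH18 was the 1 of the 5 called between harvests, against 16.4% of all genes, with a change of 0.32 at 24 h and of 0.97 at 3 h (difference −0.65 ± 0.19, adjusted p = 0.0177). It was not called without replicate 3 of the 3 h 20 °C group (−0.50), replicate 2 of the 3 h 28 °C group (−0.55) or replicate 3 of the 24 h 28 °C group (−0.58). In the hypocotyl limma called 0 of the 5, with 3 at an unadjusted p under 0.05, against 0.659% of all genes. XTH18 differed there by −0.65 ± 0.19 as well (adjusted p = 0.0988), and was called without replicate 2 of the 3 h 28 °C group (−0.79). XTH26 differed by −0.51 ± 0.18 between harvests in the cotyledon (adjusted p = 0.0555), and was called there without replicate 3 of the 24 h 20 °C group (−0.60), replicate 2 of the 3 h 28 °C group (−0.59) or replicate 3 of the 24 h 28 °C group (−0.56).

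The other measured members of the family, XTH16, XTH27 (EXGT-A3), XTH29, XTH32 and XTH33, give the setting for these changes. In the hypocotyl at 3 h, 3 of these 5 rose and 1 fell, with a median change of 0.48, against a median of 0.0315 over all genes, of which 6.99% were called higher and 7.65% lower. XTH33, predicted to be anchored in the plasma membrane, averaged 7.05 ± 0.05 at 28 °C, against 6.28 ± 0.15 at 20 °C (SD, n = 3 each), without overlap (0.77 ± 0.12, adjusted p = 4.7e-05). XTH16 rose by 0.55 ± 0.12 (adjusted p = 0.0012) and XTH27 by 0.48 ± 0.08 (adjusted p = 8.24e-05). XTH32, which with XTH31 is known for cutting xyloglucan by hydrolysis, fell by 0.26 ± 0.08 (adjusted p = 0.0301), a call lost in 4 of the 6 fits that left out 1 array, with values from −0.28 to −0.22.

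At 24 h in the hypocotyl 3 of these 5 rose and 0 fell, against 5.08% and 4.58% of all genes. XTH16 rose by 0.77 ± 0.12 (adjusted p = 3.96e-05), its largest change, XTH27 by 0.44 ± 0.08 (adjusted p = 0.000399) and XTH33 by 0.39 ± 0.12 (adjusted p = 0.0428). The XTH33 call at 24 h was lost whichever of the 6 arrays was left out, with values from 0.35 to 0.42. In the cotyledon XTH16 (0.55 ± 0.12, adjusted p = 0.000535) and XTH33 (0.44 ± 0.12, adjusted p = 0.00833) rose at 3 h, and XTH33 was not called without replicate 2 at 28 °C (0.31). At 24 h in the cotyledon XTH33 rose (0.38 ± 0.12, adjusted p = 0.0186), which was lost in 3 of 6 fits (0.24 to 0.49), and XTH32 fell (−0.36 ± 0.08, adjusted p = 0.000924).

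In the root limma called 0 of these 5 at 3 h, with 2 lower at an unadjusted p under 0.05. Of all genes, 5.38% were called higher and 5.35% lower there, so the count of 0 is near the share of all genes. At 24 h in the root XTH32 rose (0.49 ± 0.08, adjusted p = 3.54e-05), with 7.68, 7.78 and 7.71 at 28 °C, against 7.34, 7.22 and 7.14 at 20 °C. It was the 1 of these 5 called, against 8.39% of all genes called higher and 9.31% lower. XTH29 was called in none of the 6 comparisons, with changes from −0.09 to 0.10. Among all 10 measured genes of the family, the falls of about 1 log2 unit or more were those of XTH20 in the hypocotyl at both harvests and in the root at 3 h, and that of XTH26 in the root at 24 h.

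**Figure D4:**
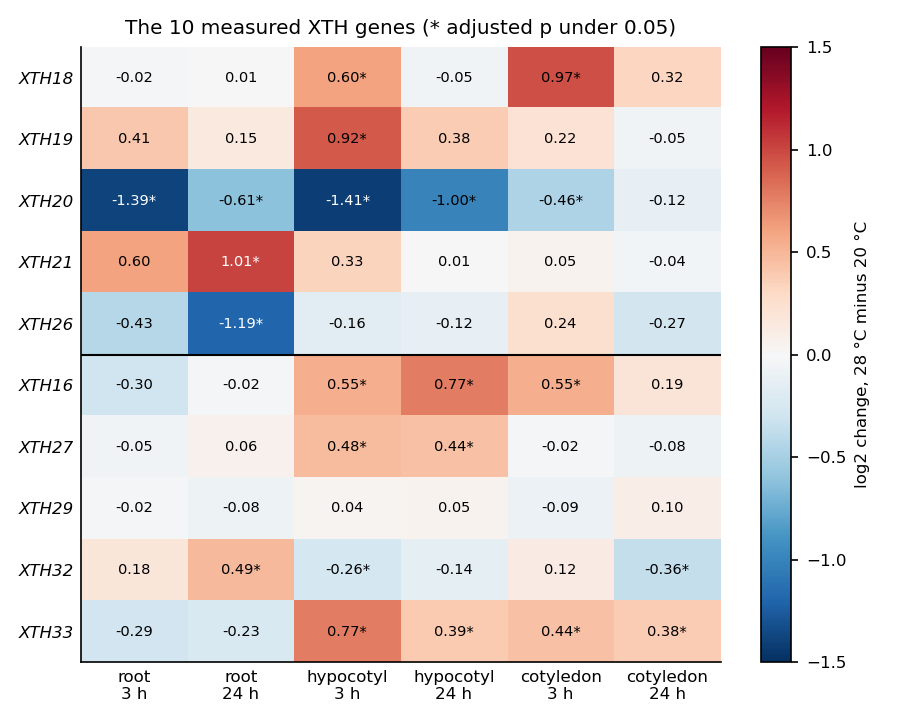
Log2 change at 28 °C minus 20 °C (colour and printed value) of the 10 measured XTH genes by organ and harvest, with an asterisk for an adjusted p under 0.05. XTH20 is negative in every column, XTH16, XTH27 and XTH33 are positive in both hypocotyl columns, and XTH21 and XTH26 show 1.01 and −1.19 in the root at 24 h.

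Of 14 listed genes of xyloglucan synthesis 5 were measured, CSLC4, CSLC5, CSLC6, CSLC8 and CSLC12, which encode synthases of the glucan backbone. None was called higher by limma in any of the 6 comparisons of 28 °C with 20 °C, and 0 were higher at an unadjusted p under 0.05. Of all genes, 5.08% to 15% were called higher in these comparisons, so 0 of 5 in a comparison is near the share of all genes. CSLC5 fell in the cotyledon at 3 h, with 6.77, 6.60 and 6.66 at 28 °C, against 7.45, 7.38 and 7.24 at 20 °C (−0.68 ± 0.11, adjusted p = 1.83e-05), where XTH18 and XTH20 went in opposite directions. CSLC4 fell in the cotyledon at 24 h (−0.34 ± 0.12, adjusted p = 0.0353) and CSLC6 in the root at 3 h (−0.36 ± 0.11, adjusted p = 0.032), and each was lost in 3 fits that left out 1 array, with values from −0.41 to −0.22 for CSLC4 and from −0.47 to −0.25 for CSLC6. The 3 listed genes of xyloglucan trimming had no named probe set and are not analysed here.

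Over the 12 group means the 3 genes most like XTH19 were AT2G46140 (r = 0.995), AT1G18980 (0.994) and AT5G08560 (0.993), and those most like XTH20 were GSTU22 (0.99), AT5G23540 (0.989) and AT3G12860 (0.989). For XTH18 they were PHOS34, AT4G29950 and AAPT2 (each 0.986). For XTH21 they were AT4G30640 (0.996), DLAH (0.995) and AT5G47740 (0.995), and for XTH26 AT3G49190 (0.992), AT2G40800 (0.992) and AT1G50720 (0.991). Among the 5 themselves r ran from 0.802 (XTH20 with XTH21) to 0.934 (XTH19 with XTH20). These correlations are a description over group means that share the organ differences, and pairs that correlate highly, such as XTH19 and XTH20, still changed in opposite directions at 28 °C in the hypocotyl at 3 h.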

How the data were processed

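Total RNA of dissected organs was hybridised as biotinylated cRNA to Affymetrix arrays, 35 of which were analysed here. The authors deposited log2 values of 22746 probe sets made with RMA, per the submitters' processing notes, which also name limma; versions, and which arrays were normalised together, are not given in the sources used here. Of the probe sets 13513 name 1 gene, 503 several, and 8730 are unnamed here. A gene with several probe sets (147 genes) was represented by the one with the highest mean. Symbols came from RefSeq (assembly TAIR10.1) for 13285 of 13355 genes.

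A linear model with 1 mean for each of the 12 groups was fitted to the 35 arrays (R 4.3.3, limma 3.58.1, default eBayes, 23 residual degrees of freedom). P-values are two-sided and Benjamini-Hochberg adjusted over 13355 genes within each comparison, with a call at 0.05. RMA shares probe effects and a common distribution across arrays, so that level differences between organs depend on the scaling. Replicate arrays were not identical in any pair, and p-values measure the spread between pooled samples. That spread is 1 estimate per gene over all 12 groups, so a p-value for 1 organ also draws on the spread in the other organs. Same-numbered replicates of 28 °C and 20 °C groups did not deviate together (r from −0.2 to 0.15 in 17 pairs, 3 of them over 0.1), so they were not paired. Replicate numbers were taken from the titles. For 1 cotyledon array at 28 °C, 3 h, the description gives replicate 4 where the title gives 3.

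The members and the gene lists were chosen with earlier results of these data known, so a p-value here is no independent support for their choice. Named beside the 5 members were other XTH genes that passed in a comparison of 28 °C with 20 °C (XTH29, which did not, was added to account for all 10), up to 4 genes of xyloglucan synthesis that passed, and for each member the 3 genes with the highest correlation. Alternatives were trended robust eBayes, fits to the compared arrays, a replicate block, centring on reference genes or array medians, dropping 5889 dim genes, all probe sets, array weights, and leaving out each array. Sequences were not used here.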

Additional observations from a re-analysis of the deposited data

Results flagged for a closer look

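In 12 cases the 28 °C change of an XTH gene differed between organs or harvests by the limma test of the difference itself, given here as log2 ± SE with the adjusted p over all genes. Of all genes, 0.659% to 20.1% were called in the comparisons of this kind. Some calls were lost when 1 array was left out. These were XTH20 and XTH26 between root harvests, XTH18 between cotyledon harvests, XTH26 for root minus cotyledon at 3 h and XTH21 for root minus hypocotyl at 24 h.

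XTH20 appeared 4 times. Its change was more negative in root than in cotyledon at 3 h (−0.93 ± 0.20, adjusted p = 0.00205) and more negative in hypocotyl than in cotyledon at 3 h (−0.95 ± 0.19, adjusted p = 0.00346) and at 24 h (−0.88 ± 0.19, adjusted p = 0.00185). In the root it was less negative at 24 h than at 3 h (0.78 ± 0.20, adjusted p = 0.0256). XTH20 is dim in the cotyledon, and the part of this in the differences from cotyledon was not tested.

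XTH26 also appeared 4 times. Its change was lower in root than in cotyledon at 3 h (−0.67 ± 0.19, adjusted p = 0.0193) and at 24 h (−0.92 ± 0.18, adjusted p = 0.000348), lower in root than in hypocotyl at 24 h (−1.07 ± 0.18, adjusted p = 0.000197), and lower at 24 h than at 3 h in the root (−0.75 ± 0.19, adjusted p = 0.0238). At 3 h neither its root nor its cotyledon change was called by itself, and its shoot values lay near the low end of the arrays.

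XTH21 rose more in root than in cotyledon (1.05 ± 0.26, adjusted p = 0.00321) and than in hypocotyl (1.0 ± 0.26, adjusted p = 0.0117) at 24 h. The XTH18 change was lower in root than in cotyledon at 3 h (−0.99 ± 0.21, adjusted p = 0.0011) and lower at 24 h than at 3 h in the cotyledon (−0.65 ± 0.19, adjusted p = 0.0177). No XTH19 difference of this kind was called. Comparisons that share a group, such as root minus cotyledon and root minus hypocotyl at 24 h, are not independent.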

How the results depend on the processing

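No value turned its direction among called results in 8 alternatives and in fits that left out 1 array each: 56 of 1320 values with an array left out and 31 of 1308 others changed their call, counted over the 5 XTH genes in all comparisons and the other XTH and CSLC genes in those of 28 °C with 20 °C. A replicate block left the calls of all 165 results as they were, for example 3 members called in the hypocotyl at 3 h and 3 in the root at 24 h. In the root at 3 h, where 1 member was called, 2 were called with trended robust eBayes, with either centring, with all probe sets, with array weights or in a fit to the compared arrays, 3 with dim genes left out, and 1 to 2 with an array left out. Dim genes were those with no group mean at or above 5.805, the median of all values. XTH21 passed this filter only through the root at 28 °C, 24 h (5.89), and XTH26 only through the root at 20 °C, 24 h (5.83). Each was thus kept through the group where it is highest, so the calls with dim genes left out are no support for these 2 genes. XTH members called in the cotyledon at 24 h were 1 when centred on reference genes, in place of 0. For root minus hypocotyl at 3 h, 1 was called with array weights, in place of 0. Between harvests, 2 were called in the cotyledon with trended robust eBayes, centring on array medians or dim genes left out and 0 with array weights, in place of 1, and 1 in the root in a fit to the compared arrays, in place of 2. With 1 array left out, the number of members called ranged from 1 to 2 in the cotyledon at 3 h, 0 to 1 for root minus hypocotyl at 3 h, 1 to 2 for hypocotyl minus cotyledon at 3 h, 1 to 2 for root minus hypocotyl at 24 h, 0 to 1 between harvests in hypocotyl, 0 to 2 in cotyledon, 0 to 2 in root, and 1 to 2 between the 20 °C cotyledon harvests. The cause of these changes was not tested. Leaving out a root array at 28 °C, 3 h, leaves 1, assumed to vary like the other groups. Dim probe sets limit XTH21 and XTH26 in shoot organs, and XTH19 and XTH20 in the cotyledon. In the root, too, XTH21 and XTH26 lay only in the lower to middle part of the arrays.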
